A study of Mus musculus with 8 samples.

Results

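The genes described here are 9 that build the tight junction, the seal near the apical surface of epithelial cells: the claudins Cldn1, Cldn3, Cldn4, Cldn5, Cldn7 and Cldn8, occludin (Ocln), the scaffold protein ZO-1 (Tjp1) and the adhesion molecule JAM-A (F11r). They were chosen by symbol, and are 9 of the 27998 genes in the count tables. For each gene the unique molecular identifiers (UMIs, 1 for each captured transcript) were summed over the cells of a library and cluster, and are given as CPM, counts in 1000000 UMIs of that sum. The cells were mammary epithelial cells of C57BL/6N mice, sorted as EpCAM positive and negative for CD31, CD45 and Ter119, and profiled by 10x Chromium 3′ sequencing. Each of 4 stages had 2 mice with 1 library apiece: NP mice were nulliparous at 8 weeks, G mice were pregnant at gestational day 14.5, L mice had nursed until lactation day 6, and PI mice were past involution, 11 days from natural weaning. None of the labels names a treatment. By the study's vaginal smears both NP mice and the second PI mouse were in oestrus, and the first PI mouse was in dioestrus. The part of cycle stage in the differences between NP and PI was not tested. An age is given for the NP mice alone, so the part of age in these differences could not be tested either. The deposited annotation places 23183 cells in clusters C1 to C15, and 35 sums of at least 20 cells, with 23099 cells, entered the analysis. Following the study's names, C1 and C2 are hormone-sensing progenitors (Hsp), C3 to C5 differentiated hormone-sensing cells (Hsd), C6 and C7 luminal progenitors (Lp), C10 and C11 alveolar progenitors (Avp), C8 and C9 differentiated alveolar cells (Avd), C12 and C13 basal cells, and C14 myoepithelial cells. C12 to C14 are called basal together here, so that the basal cells of L mice are nearly all of the myoepithelial cluster. C15, which the study groups with the basal lineage, carried pericyte markers at 4899 to 5635 CPM, against at most 117.7 CPM in the other basal sums, and is given apart.

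Claudins span the membrane and pair with claudins of the neighbouring cell, and the mixture of claudins sets which ions pass between cells. Occludin runs along the same strands, ZO-1 ties claudins and occludin to actin, and JAM-A is an immunoglobulin-like molecule at the same site. In the mammary gland the junctions between luminal cells are leaky during pregnancy and close around the start of milk secretion, whereas basal myoepithelial cells surround the luminal layer and do not face the lumen. Cldn3, Cldn4 and Cldn7 are typical epithelial claudins, Cldn1 is a barrier-forming claudin best known from skin, Cldn8 is known from tight epithelia such as the distal nephron, and Cldn5 is the claudin of endothelium.

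In the GRCm38 annotation the claudins lie partly in pairs. Cldn3 (chr5:134986214-134987472, plus strand) and Cldn4 (chr5:134945119-134946934, minus strand) are single-exon genes 39279 bases apart with no protein-coding gene between them. Cldn5 (chr16:18776847-18778262, plus strand) and Cldn8 (chr16:88560828-88563183, minus strand) also have a single exon, and Cldn1 (chr16:26356642-26371841, minus strand) has 4. Cldn7 lies at chr11:69964779-69967885 on the plus strand, Ocln at chr13:100496507-100552718 on the minus strand, Tjp1 at chr7:65296165-65527781 on the minus strand and F11r at chr1:171437535-171464603 on the plus strand.

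The 250 bases before the start sites of 8 of the 9 genes were read from RefSeq promoters (GRCm38.p6), because Cldn3, Cldn4, Cldn7 and Ocln correlated over all 35 sums (Pearson 0.911 to 0.976) and fell in basal cells from NP to G; Cldn8 had no entry. They were searched on both strands for CAGGTG, the E-box bound by the Snail family, for TGANTCA (AP-1) and for AACCGGTT (grainyhead). The E-box was found in 1 window each of Cldn4, Cldn7, Ocln and F11r, which is 4 of the 10 windows of these genes, and in 17.2% of all 32851 promoter windows. Cldn7 and Ocln have 2 windows each and hold it only in that of the second start site, which lies inside the annotated gene, at −97 and −57 (Cldn7) and at −213 and −68 (Ocln) from that start. It was not found in the windows of Cldn1, Cldn3, Cldn5 and Tjp1. The Tjp1 window (chr7:65371245-65371494, minus strand) also lies inside the annotated gene, and its start did not match that of an annotated transcript. The 5′ end of the annotated Tjp1 gene was thus not searched. A match is a description of the letters and not evidence of binding. The windows of Cldn4 and F11r, with a match at −14 and −122, and that of Cldn3, the neighbour of Cldn4 without one, are shown 5′ to 3′ on the strand of the gene, with the reverse complement CACCTG of the box in capitals. They lie at chr5:134946935-134947184 (Cldn4, minus strand), chr1:171437311-171437560 (F11r, plus strand) and chr5:134985964-134986213 (Cldn3, plus strand).
Cldn4: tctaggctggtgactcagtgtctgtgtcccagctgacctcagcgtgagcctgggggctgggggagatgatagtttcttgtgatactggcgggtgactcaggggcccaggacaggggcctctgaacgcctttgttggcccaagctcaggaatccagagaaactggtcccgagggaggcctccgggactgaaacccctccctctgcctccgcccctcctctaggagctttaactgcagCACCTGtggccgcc
F11r: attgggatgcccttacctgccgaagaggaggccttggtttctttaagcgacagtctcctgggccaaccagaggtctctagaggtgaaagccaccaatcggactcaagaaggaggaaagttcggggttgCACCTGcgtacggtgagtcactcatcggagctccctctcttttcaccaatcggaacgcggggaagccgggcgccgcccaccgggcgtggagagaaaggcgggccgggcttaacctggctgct
Cldn3: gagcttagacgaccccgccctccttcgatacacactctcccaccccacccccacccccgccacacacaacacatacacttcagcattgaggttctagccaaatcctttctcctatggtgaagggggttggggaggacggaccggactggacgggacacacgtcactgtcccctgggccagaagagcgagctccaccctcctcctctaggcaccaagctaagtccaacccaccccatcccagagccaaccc
The AP-1 sequence was present in 6.75% of all windows, in 2 copies in that of Cldn4 and in 1 copy in that of F11r, and the grainyhead sequence in 0.116% of all windows and in none of these genes.

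The 8 libraries held 13785920 to 35711533 UMIs, with a median per cell from 3770 in an L library to 9624 in a G library. Of 25806 barcodes, 25009 passed the authors' filters, and 791 cells with 392 barcode sequences found in more than 1 library were not used. The luminal keratins Krt8, Krt18 and Krt19 summed to 1941 to 21450 CPM in the luminal clusters and 852.3 to 5848 CPM in basal ones. C18, left out of the 15 clusters, carried fibroblast markers at 14020 to 53310 CPM and served as cells that should lack epithelial junctions: there Cldn4 was 87.44 and 115.5 CPM in the NP mice and at most 26.59 CPM in the other libraries, Cldn3 4.34 to 37.5 CPM, Cldn7 0 to 34.4 CPM and Cldn8 0 to 0.789 CPM. Cldn1 was 0 to 26.01 CPM there and Ocln 0 to 3.12 CPM. Levels at or below these were read as background. For Cldn1 the top of the range is a loose limit, as C14 of the L mice had 2.27 and 2.29 CPM and C15 had 0. Tjp1 was 13.58 to 72.51 CPM in C18, overlapping its luminal and basal levels, so C18 gives no background for it.

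Cldn3 and Cldn7 were present in all 25 luminal sums at levels of a narrow range. Cldn3 ranged from 375.6 CPM in C9 of an L mouse to 1331 CPM in C6 of a PI mouse, with a median of 754.7 CPM and a ratio of highest to lowest of 3.55. Cldn7 ranged from 210.2 CPM in C9 to 935.2 CPM in C6 of an NP mouse, with a median of 447.9 CPM. Milk protein genes made up 447538 and 417202 CPM of C9, which lowers the CPM of every other gene there. Low levels of C9, here and for the genes below, are given as CPM of all UMIs. They are not read as lower expression than in other luminal clusters. The highest Cldn7 levels were in luminal progenitors of NP mice (860.5 and 935.2 CPM), which did not overlap with the next group, the luminal progenitors of PI mice (613.1 and 738.6 CPM).

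**Figure D1:**
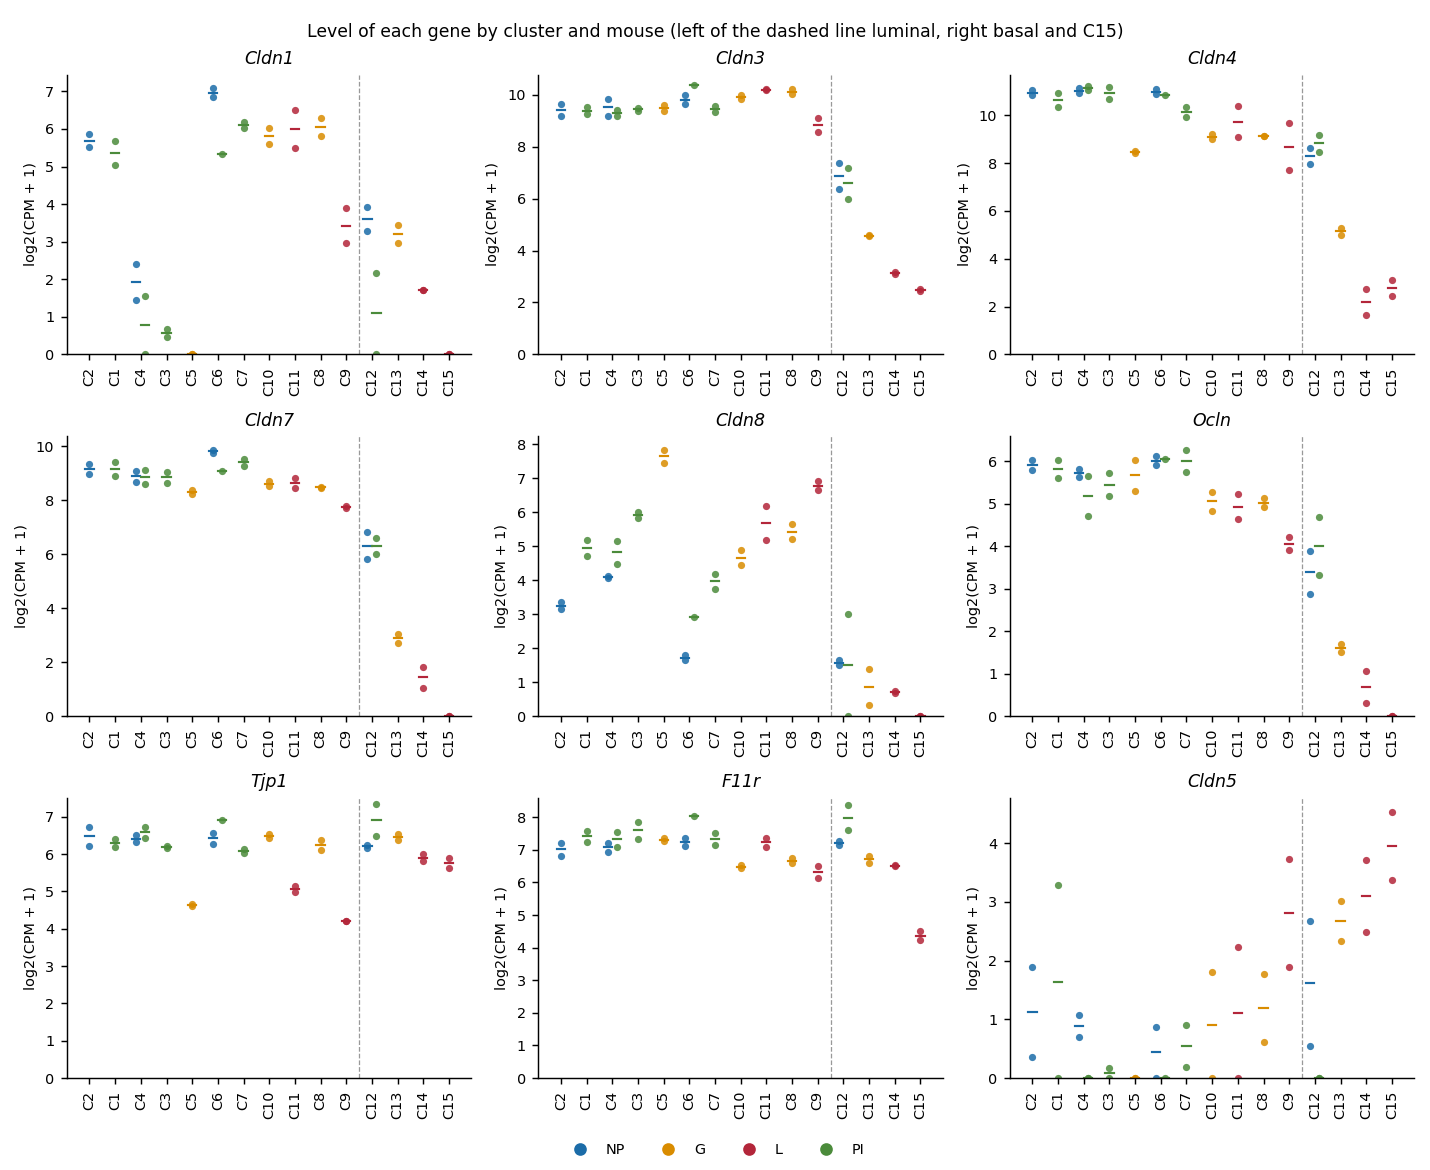
Level of each of the 9 genes as log2(CPM + 1) by cluster; each point is 1 mouse, coloured by stage, with luminal clusters to the left of the dashed line and basal clusters and C15 to the right. Cldn3, Cldn4, Cldn7 and Ocln drop across the line, Tjp1 and F11r do not, Cldn8 and Cldn1 vary most among luminal clusters, and Cldn5 is low in all of them.

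Cldn4 varied more among luminal clusters than Cldn3 or Cldn7, by a ratio of 11.6 from 206.1 to 2397 CPM. Its 7 highest levels, with means of 1614 to 2263 CPM, 1 of them from a single mouse, were the hormone-sensing cells and luminal progenitors of NP mice and clusters of PI mice. Next came the luminal progenitors of C7 in PI mice with a mean of 1147 CPM, and the alveolar clusters of G and L mice had means of 516.1 to 938.8 CPM. Over all 18 levels, those of the basal clusters and C15 included, 15 of 17 pairs of neighbours overlapped between mice. C5, the hormone-sensing cells of G mice, stood at 340.6 and 365.1 CPM, far under the 1931 and 2278 CPM of C4 in NP mice.

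Ocln was measured at low counts. Its luminal levels ran from 13.97 CPM in C9 of an L mouse to 76.42 CPM in C7 of a PI mouse, and 13 of 17 neighbouring levels overlapped. As CPM of all UMIs, milk genes included, the lowest luminal level was in the lactating alveolar cells of C9 (13.97 and 17.52 CPM). On that scale it overlapped with the level of PI basal cells (8.963 and 24.66 CPM).

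Cldn1 was spread unevenly over the luminal cells. C6 of NP mice had the highest mean, 124.6 CPM, and C7 of PI mice, C11 of L mice, C8 and C10 of G mice, C2 of NP mice and C1 of PI mice followed with means of 68.2 to 40.7 CPM. Differentiated hormone-sensing cells were near 0, within the 0 to 26.01 CPM of C18. C4 of NP mice had a mean of 2.99 CPM, C3 of PI mice had 0.493 CPM, and C5 of G mice had no UMI in 61 cells. The count of 0 in C5 allows up to 24.3 and 11.6 CPM in its 2 mice, so a difference of C5 from C4 was not detectable at this depth.

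Cldn8 had another order. Its highest levels were 174.2 and 227.2 CPM in the hormone-sensing cells of G mice (C5), 97.99 to 117.7 CPM in the differentiated alveolar cells of L mice and 55.05 and 60.82 CPM in the differentiated hormone-sensing cells of PI mice. It was lowest in luminal progenitors of NP mice, at 2.11 and 2.48 CPM from 7 and 6 UMIs. The share of cells with at least 1 Cldn8 UMI was 65.0% (exact 95% interval 40.8 to 84.6%) and 61.0% (44.5 to 75.8%) in C5 of the 2 G mice, against 1.61% and 1.90% in C6 of the NP mice and 1 of 284 cells in C18 of an L mouse, at median depths of 6224 and 5514, 7768 and 6597, and 4044 UMIs. After thinning every cell to 1000 UMIs, C5 had shares of 15% and 19.5%, and C6 of the second NP mouse had 0.317%. Intervals and limits of this kind cover counting error only.

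Tjp1 and F11r were spread over luminal and basal clusters alike. Levels here are CPM of all UMIs, milk genes included, which lowers those of C9. Tjp1 was highest in basal cells of PI mice (88.07 and 161.3 CPM). It was lowest in C9 of L mice (17.47 and 17.52 CPM), C5 of G mice (23.22 and 24.34 CPM) and C11 of L mice (30.57 and 34.23 CPM). F11r ran from 69.87 CPM in C9 to 331.6 CPM in basal cells of a PI mouse, and 15 of its 17 neighbouring levels overlapped. C15 had F11r at 17.8 and 21.7 CPM, below every luminal and basal sum, while its Tjp1 of 48.95 and 58.99 CPM lay next to that of lactating basal cells.

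Cldn5 was at 0 in 10 of 25 luminal sums and reached 12.23 CPM at most, in C9 of an L mouse. In C19, a cluster outside the 15 with 9 of 9 endothelial markers at a sum of 4656 to 6393 CPM, Cldn5 was 943.1 and 1379 CPM in the L mice and 1293 and 1675 CPM in the G mice. In C1 of a PI mouse 44 Cldn5 UMIs came from 5 of 385 cells, and the other PI mouse had 0. In C14 of the L mice there were 257 and 77 Cldn5 UMIs, or 12.16 and 4.63 CPM, and the endothelial markers summed to 94.75 and 41.2 CPM in the same sums; their part in the Cldn5 level was not tested.

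The first comparison set luminal (C1 to C11) against basal cells (C12 to C14) within each of the 8 mice. Cldn3, Cldn4, Cldn7, Cldn8, Cldn1 and Ocln were higher in luminal cells of every mouse, while Tjp1 and F11r were higher in luminal cells of 2 of 8 mice each. For Cldn4 the luminal level in NP mice was 2234 and 1911 CPM and the basal level 395.6 and 246.3 CPM. In G mice it was 564.8 and 567.5 against 31.19 and 42.64 CPM. In L mice it was 418.3 and 1083 against 2.18 and 5.66 CPM, and in PI mice 1697 and 1421 against 559.5 and 323.1 CPM. The ranges of the lineages did not overlap within any stage, and the basal level as a percentage of the luminal one went from 0.52% in L to 33.0% in PI. The basal level of Cldn4 was above that of C18 in each NP and G mouse, and in L the fibroblast cluster had 2.37 and 0 CPM.

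**Figure D2:**
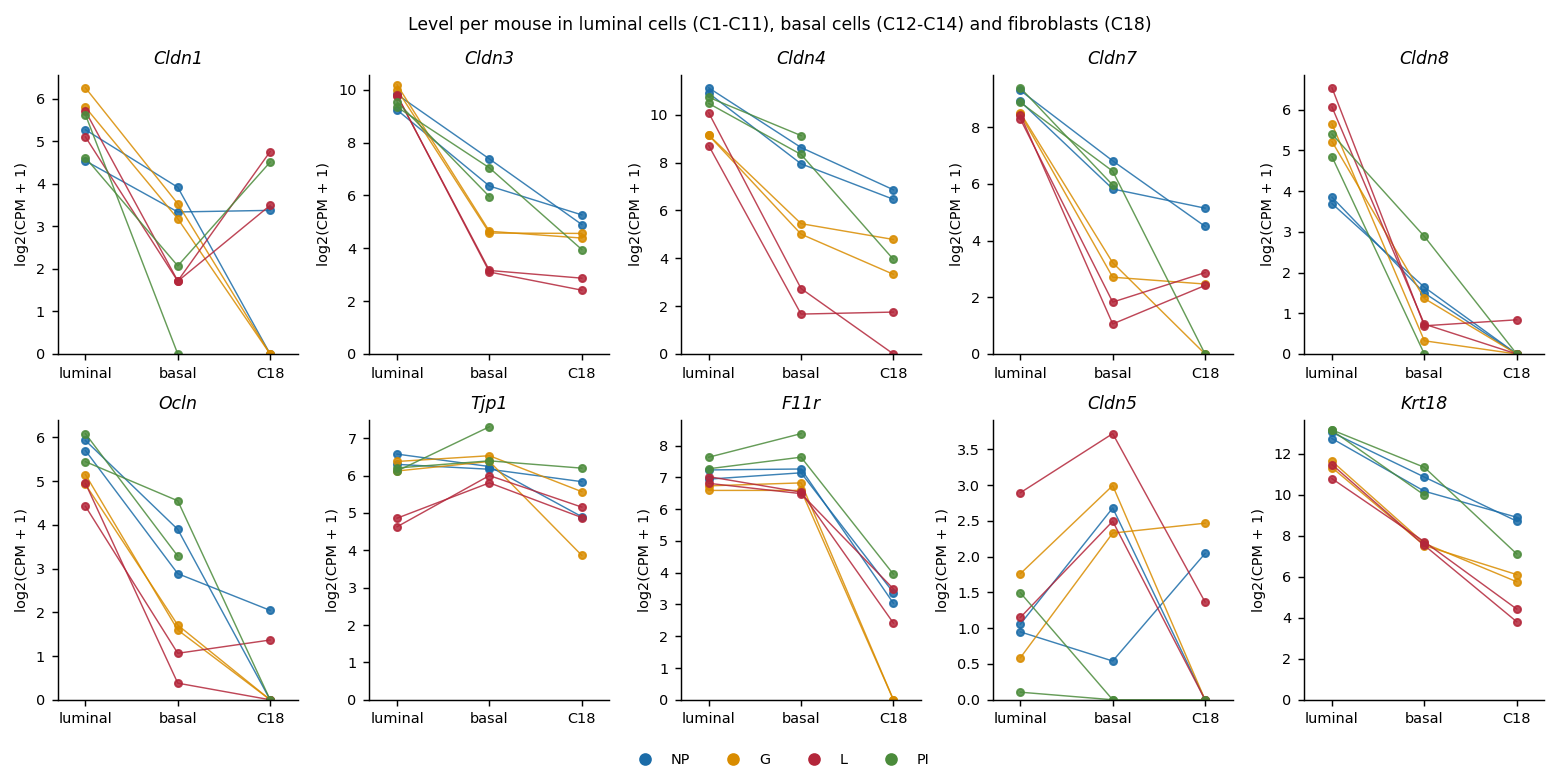
Level per mouse as log2(CPM + 1) in luminal cells, basal cells and the fibroblast cluster C18; points are mice, coloured by stage. Basal levels of Cldn3, Cldn4, Cldn7 and Ocln were lowest in the L mice, near those of C18. The basal level was 79.2 to 265% of the luminal one for Tjp1 and 71.1 to 168% for F11r.

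The fold changes of the within-mouse fit describe the size of these gaps; the lineages had been drawn on the same counts, so the p-values do not test whether a split exists. In edgeR's quasi-likelihood test, adjusted after Benjamini and Hochberg, 7 of the 9 genes passed, 6 of them higher in luminal cells, where 47.1% of all tested genes did (24.6% higher and 22.5% lower). Cldn8 was 5.33 ± 0.67 (SE, log2) higher in luminal cells, Cldn7 4.92 ± 0.73, Cldn3 4.76 ± 0.65, Cldn4 3.98 ± 0.72, Ocln 3.63 ± 0.50 and Cldn1 3.00 ± 0.42, with adjusted p from 6.91e-05 to 0.000827. Cldn5 was lower in luminal cells (−1.32 ± 0.45, adjusted p = 0.03), a call that was lost without either G mouse (−1.02 and −1.28, adjusted p = 0.103 and 0.0791), the first NP mouse (−1.12, 0.0862) or the second L mouse (−1.26, 0.0611). Tjp1 (−0.22 ± 0.19, adjusted p = 0.368) and F11r (0.15 ± 0.15, adjusted p = 0.449) did not pass. The median over the 9 genes was 3.63 and that over all tested genes 0.07. For the luminal keratins the same basal share of the luminal level was 16.2 to 80.9% for Krt8, 6.19 to 28.2% for Krt18 and 0.888 to 34.9% for Krt19.

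Between stages the mice are the replicates, with 2 against 2, so an exact permutation test of a single value could not go below p = 0.333 and the tests rest on the spread estimated across all genes. Cldn5 was under the filter on low counts in Lp, Hsd and Avp, and Cldn8 in basal cells, which leaves 8 genes tested there. From NP to PI, Cldn8 rose in all 3 cell types compared, and Cldn1 and Cldn4 fell in some of them. In luminal progenitors Cldn8 was 2.11 and 2.48 CPM in NP and 12.33 and 17.20 CPM in PI, a rise of 2.77 ± 0.36 (SE, log2; adjusted p = 0.000251). In hormone-sensing progenitors it was 7.80 and 9.27 CPM in NP and 25.12 and 35.28 CPM in PI, a rise of 1.85 ± 0.23 (adjusted p = 0.000218). In differentiated hormone-sensing cells it was 15.58 and 16.56 CPM in NP and 55.05 and 60.82 CPM in PI, a rise of 1.73 ± 0.17 (adjusted p = 9.92e-09). None of these pairs of groups overlapped. Cldn8 kept its call without any 1 of the 4 mice in each of the 3 cell types. It lost the call in differentiated hormone-sensing cells with the sums thinned to equal depth (2.03, adjusted p = 0.0598), and in hormone-sensing progenitors when tested by glmTreat against a log2 fold change of 1 at an FDR of 0.01 (adjusted p = 0.0211).

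**Figure D3:**
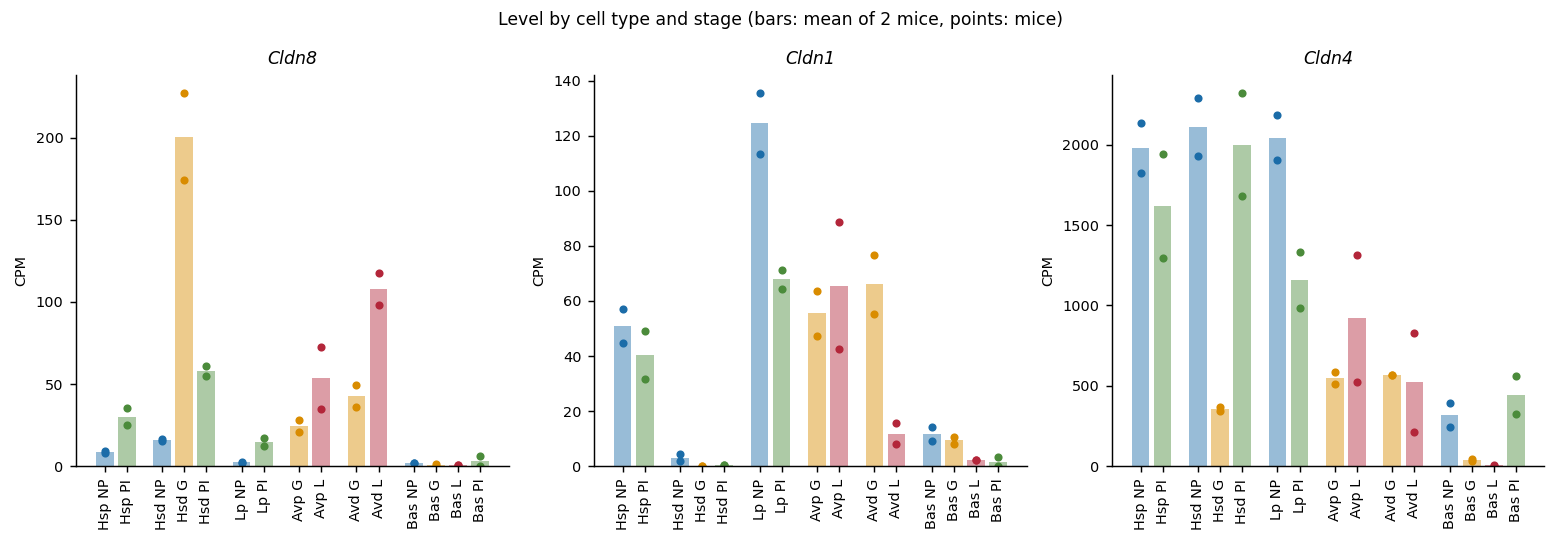
CPM of Cldn8, Cldn1 and Cldn4 by cell type and stage; bars are means of 2 mice and points the mice (Bas, basal cells). Cldn8 is higher in PI than in NP in each luminal type and, as CPM of all UMIs with milk genes included, highest in Hsd of G mice. Cldn1 is highest in Lp of NP mice and near 0 in Hsd, and Cldn4 of Hsd is low in G alone of its 3 stages.

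In luminal progenitors 3 of 8 tested genes changed from NP to PI, where 26.9% of all tested genes did (13.9% rose and 13% fell). Besides Cldn8, Cldn1 fell from 113.4 and 135.5 CPM to 64.45 and 71.17 CPM (−0.80 ± 0.13, adjusted p = 0.00133). Cldn4 fell from 1904 and 2187 CPM to 982.8 and 1332 CPM (−0.74 ± 0.17, adjusted p = 0.0082), and without the first NP mouse this missed the threshold (−0.66, adjusted p = 0.0577). Cldn7 was 859.8 and 935.2 CPM in NP and 612.8 and 734.6 CPM in PI, groups that did not overlap but did not pass (−0.33 ± 0.14, adjusted p = 0.0996) except without the first PI mouse (−0.45, adjusted p = 0.0376). Cldn3, Ocln, Tjp1 and F11r did not pass, with changes of −0.27 to 0.19. Milk protein genes rose in the same sums, 7 of 7 tested; their part in the result was not tested, and with these genes left out of the totals every one of the calls for the 9 genes was kept.

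In hormone-sensing progenitors Cldn8 was the 1 gene of 9 tested that changed, where 16.6% of all tested genes did (9.58% rose and 7.05% fell). Without the first PI mouse, Cldn1 (−0.69, adjusted p = 0.0102), Cldn4 (−0.59, adjusted p = 0.0461) and Cldn5 (2.37, adjusted p = 0.00439) passed as well, and without the second PI mouse F11r did (0.56, adjusted p = 0.00724). In differentiated hormone-sensing cells 2 of 8 tested genes changed, where 16.8% of all tested genes did (7.66% rose and 9.18% fell). Besides Cldn8, Cldn1 fell by 2.70 ± 0.59 (adjusted p = 0.00155) from 54 and 25 UMIs in NP to 2 and 7 UMIs in PI, in 983 and 1217 and in 452 and 2575 cells. The levels in both stages lay within the 0 to 26.01 CPM of Cldn1 in C18, a loose limit. This call is thus between low levels that C18 does not set apart from background. That call was lost without the second PI mouse (−2.53, adjusted p = 0.0582), and Ocln passed without the first one (−0.55, adjusted p = 0.0208) and F11r without the second (0.60, adjusted p = 0.00979). Cldn4 of these cells was 1933 and 2290 CPM in NP and 1680 and 2322 CPM in PI, groups that overlapped (−0.19 ± 0.19, adjusted p = 0.56).

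The fall of Cldn4 and of Cldn1 from NP to PI was then compared between cell types, with the mouse as a block. Of 8 tested genes 2 differed, where 13% of all tested genes did (6.7% higher and 6.27% lower in luminal progenitors). The change of Cldn4 was lower in luminal progenitors than in differentiated hormone-sensing cells (difference −0.60 ± 0.17, adjusted p = 0.024). That of Cldn1 was higher (1.79 ± 0.49, adjusted p = 0.0223), as Cldn1 fell further, in proportion, in the hormone-sensing cells. Cldn1 in the hormone-sensing cells was at low counts and within its levels in C18, so its difference is not read as one between the cell types. Both calls were lost without the mouse as a block. That of Cldn4 was lost without any 1 of the 4 mice (−0.58 to −0.54, adjusted p = 0.052 to 0.151), and that of Cldn1 without the first NP mouse (1.23, adjusted p = 0.194) or the second PI mouse (1.77, adjusted p = 0.16). The rise of Cldn8 was 0.98 ± 0.40 larger in luminal progenitors, which did not pass (adjusted p = 0.118) except without the first PI mouse (1.29, adjusted p = 0.017).

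**Figure D4:**
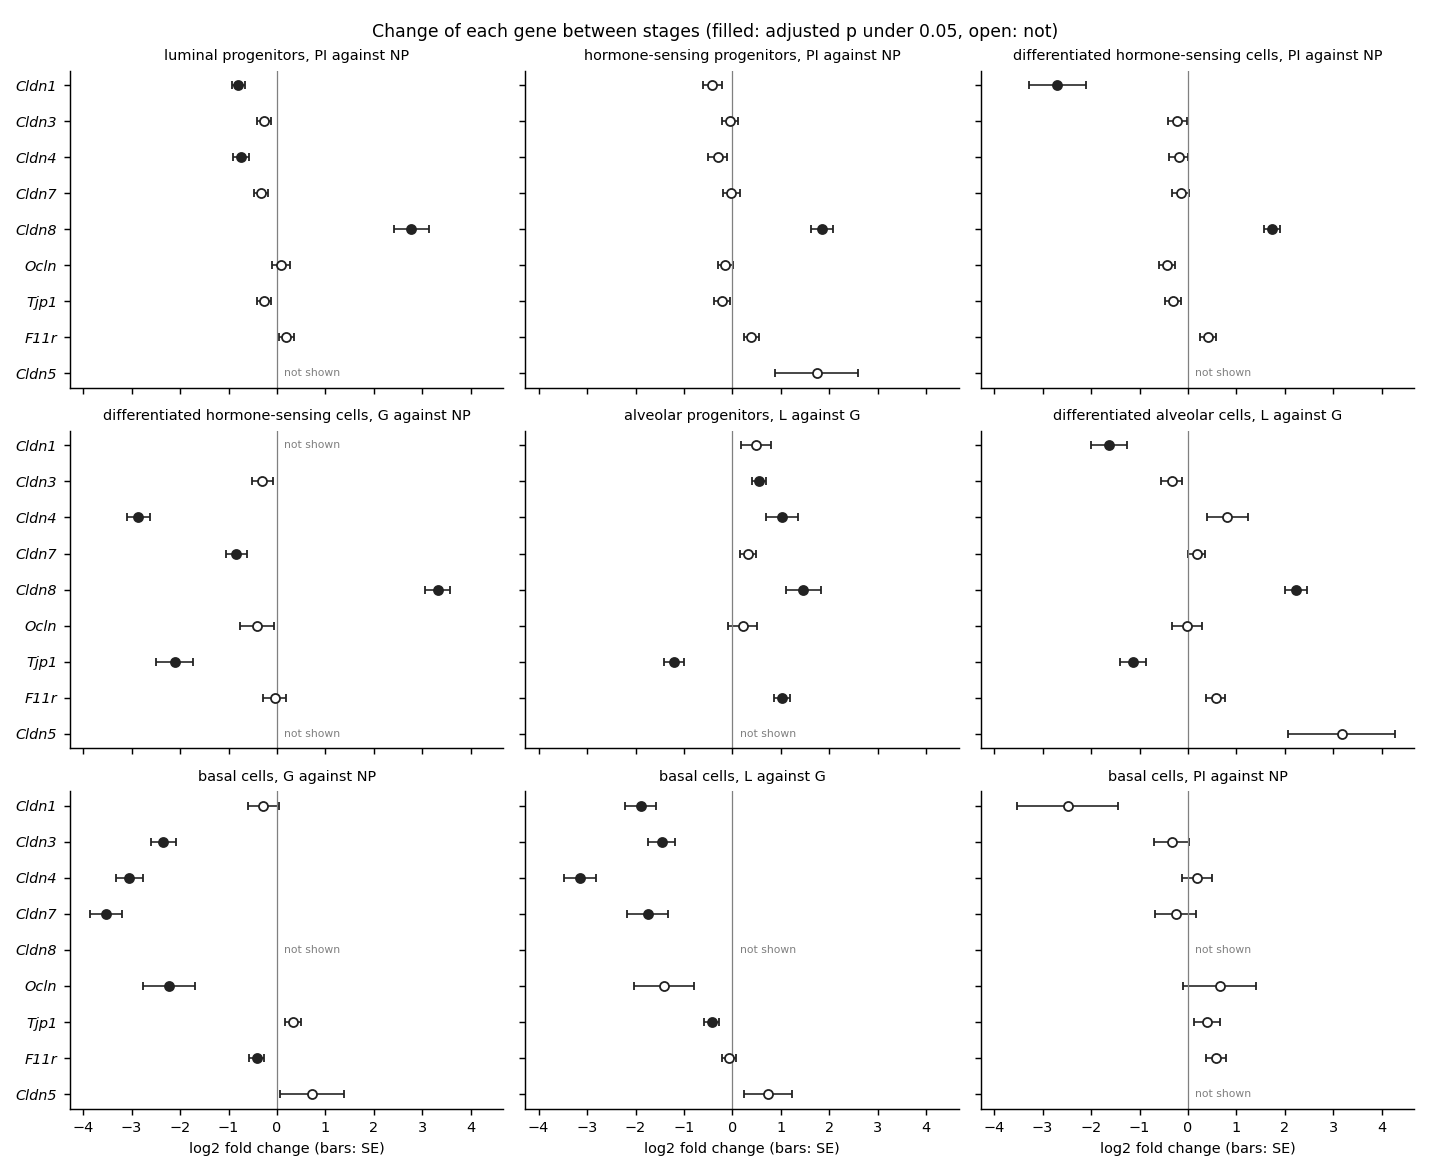
Log2 fold change of each of the 9 genes in each comparison of stages, with bars for the standard error; filled points have an adjusted p under 0.05 and open points do not. Cldn8 lies to the right of 0 wherever it was tested in a luminal cell type, and Cldn3, Cldn4 and Cldn7 lie to the left in basal cells from NP to G and again from G to L.

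Differentiated hormone-sensing cells of G mice were few, 20 and 41 cells, and 4 of 8 tested genes differed from NP, where 15.6% of all tested genes did (6.51% rose and 9.1% fell). Cldn4 fell from 1933 and 2290 CPM to 340.6 and 365.1 CPM (−2.86 ± 0.23, adjusted p = 1.1e-10), and Cldn8 rose from 15.58 and 16.56 CPM to 174.2 and 227.2 CPM (3.31 ± 0.25, adjusted p = 2.57e-11). Neither pair of groups overlapped, and both calls held without any 1 of the mice. Tjp1 fell from 79.15 and 89.90 CPM to 23.22 and 24.34 CPM (−2.11 ± 0.38, adjusted p = 0.000133), from 3 and 6 UMIs in G, and lost the call without the second G mouse (−2.03, adjusted p = 0.0863). Cldn7 fell from 412.4 and 540.6 CPM to 300.2 and 332.9 CPM (−0.84 ± 0.22, adjusted p = 0.00643), and lost the call without either G mouse (−0.79 and −0.90, adjusted p = 0.113 and 0.207) or the first NP mouse (−0.70, adjusted p = 0.0507). Cldn3 was 576.5 and 920.7 CPM in NP and 665.4 and 781.8 CPM in G, within the same range (−0.30 ± 0.21, adjusted p = 0.372). All 3 luminal keratins fell in these G sums, which had milk protein genes at 1842 and 991 CPM against 14.6 and 11.9 CPM in C4 of NP mice; their part in the result was not tested. The median change of all tested genes was −0.24 here.

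From G to L, the alveolar progenitors had 5 of 8 tested genes changed, where 28% of all tested genes did (15.7% rose and 12.3% fell). F11r rose from 85.69 and 91.09 CPM to 132.1 and 163.3 CPM (1.01 ± 0.17, adjusted p = 0.002), and Tjp1 fell from 86.09 and 91.81 CPM to 29.90 and 32.79 CPM (−1.21 ± 0.20, adjusted p = 0.00216). Both held when each mouse was left out in turn. Cldn8 rose from 20.59 and 28.31 CPM to 34.50 and 72.67 CPM (1.46 ± 0.36, adjusted p = 0.0139), a call lost without the first L mouse (0.79, adjusted p = 0.0955). Cldn3 rose from 918.3 and 1009 CPM to 1137 and 1175 CPM (0.55 ± 0.15, adjusted p = 0.0222), and missed the threshold without either G mouse (0.60 and 0.47, adjusted p = 0.135 and 0.25). Cldn4 was 508.8 and 588.9 CPM in G and 526.4 and 1312 CPM in L, groups that overlapped, and its call (1.02 ± 0.33, adjusted p = 0.0459) was lost without the second L mouse (0.26, adjusted p = 0.228) or the first G mouse (0.90, adjusted p = 0.0845). Without the first L mouse Cldn1 (0.93, adjusted p = 0.00258) and Cldn7 (0.47, adjusted p = 0.032) passed. Basal markers rose in the same sums, 4 of 4, from 127.8 and 197.1 CPM in G to 4666 and 3345 CPM in L; their part in the result was not tested.

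In differentiated alveolar cells, 43 and 48 of them in the L mice, 3 of 9 tested genes changed from G to L, where 18.7% of all tested genes did (9.54% rose and 9.17% fell). Cldn8 rose from 49.25 and 35.70 CPM to 117.7 and 97.99 CPM (2.23 ± 0.22, adjusted p = 2.03e-05) and kept its call without any 1 of the mice. Cldn1 fell from 55.19 and 76.82 CPM to 15.58 and 8.05 CPM (−1.63 ± 0.37, adjusted p = 0.00829), on 9 and 6 UMIs in L, and lost the call without the second G or the second L mouse (−1.24 and −1.25, adjusted p = 0.12 and 0.0924). Tjp1 fell from 67.70 and 82.56 CPM to 19.05 and 17.45 CPM (−1.14 ± 0.27, adjusted p = 0.0098), on 11 and 13 UMIs in L, and lost the call without either G mouse (−1.07 and −0.86, adjusted p = 0.0752 and 0.211) or the second L mouse (−1.15, adjusted p = 0.0519). Cldn4 did not have a stable direction: it was 568.2 and 568.4 CPM in G and 211.3 and 830.9 CPM in L, and its change of 0.81 ± 0.42 (adjusted p = 0.206) became 1.48 (adjusted p = 1.04e-05) without the first L mouse and −0.61 (adjusted p = 0.0402) without the second. Cldn3 was 1033 and 1190 CPM in G and 389.6 and 545.0 CPM in L, yet the fitted change was −0.34 ± 0.22 (adjusted p = 0.318), and it passed without the second L mouse (−0.69, adjusted p = 0.0204). F11r was 95.6 and 106.1 CPM in G and 69.26 and 88.59 CPM in L, with a fitted change of 0.57 ± 0.19 (adjusted p = 0.0523) that passed without the first L mouse (0.75, adjusted p = 0.0186). Milk protein genes made up 447538 and 417202 CPM of C9, so CPM and the fit, which scales each sum by TMM, are not the same scale here. With these genes left out of the total, Cldn3 in C9 was 680 and 939 CPM, Cldn4 373 and 1418 CPM and Cldn8 215 and 169 CPM. Basal markers rose in these sums as well, 4 of 4, from 112.4 and 108.0 CPM to 2021 and 884.1 CPM, and their part in the result was not tested.

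In basal cells from NP to G, 5 of 8 tested genes fell and none rose, where 39.9% of all tested genes changed (21% rose and 18.9% fell). Cldn7 went from 111.4 and 55.54 CPM to 5.53 and 8.30 CPM (−3.53 ± 0.34, adjusted p = 8.57e-07), Cldn4 from 395.6 and 246.3 CPM to 31.19 and 42.64 CPM (−3.05 ± 0.29, adjusted p = 7.3e-07) and Cldn3 from 165.9 and 81.03 CPM to 22.89 and 24.01 CPM (−2.34 ± 0.26, adjusted p = 3.82e-06). The stages did not overlap for any of the 3, and each call held without any 1 of the mice. With the sums thinned to equal depth only Cldn4 of the 5 was called (−2.85, adjusted p = 8.61e-05), while Cldn3, Cldn7 and Ocln were under the filter on low counts and not tested. Ocln fell from 13.87 and 6.37 CPM to 2.26 and 2.02 CPM (−2.22 ± 0.54, adjusted p = 0.00348), a call lost without the first NP mouse (−1.51, adjusted p = 0.177). F11r fell by 0.42 ± 0.15 (adjusted p = 0.0351), from 140.7 and 153.0 CPM to 95.57 and 112.7 CPM, and lost the call without either NP mouse (−0.38 and −0.45, adjusted p = 0.213 and 0.0978) or the first G mouse (−0.31, adjusted p = 0.244). In the thinned sums its change was 0.53 (adjusted p = 0.467). Tjp1 was 71.01 and 74.74 CPM in NP and 82.24 and 91.57 CPM in G and did not pass (0.33 ± 0.16, adjusted p = 0.113). In the same sums all 3 luminal keratins fell (Krt8 −1.15, Krt18 −2.91 and Krt19 −3.58 on the log2 scale). Of the hormone-sensing markers Esr1, Pgr and Prlr, Prlr fell by more (−5.80) than any of these keratins. Of the luminal progenitor markers Aldh1a3, Kit and Cd14, Aldh1a3 fell (−4.49). The part of these genes in the result was not tested. The Cldn3 level in G basal cells, 22.89 and 24.01 CPM, was next to the 22.64 and 19.94 CPM of C18 in the same mice and is read as background. The G levels of Cldn7 and Ocln lay within the 0 to 34.35 and 0 to 3.12 CPM of C18 over all libraries. They are read as background too, so the falls of these genes end at background.

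From G to L the comparison set cells mainly of C13 against those of the myoepithelial cluster C14, and 5 of 8 tested genes fell, where 50.1% of all tested genes changed (25.2% rose and 24.9% fell). Cldn4 went to 2.18 and 5.66 CPM (−3.15 ± 0.33, adjusted p = 9.77e-07), Cldn3 to 7.95 and 7.58 CPM (−1.46 ± 0.28, adjusted p = 0.000355), Cldn7 to 2.56 and 1.08 CPM (−1.75 ± 0.43, adjusted p = 0.0029) and Cldn1 from 8.05 and 10.55 CPM to 2.27 and 2.29 CPM (−1.90 ± 0.32, adjusted p = 0.000116). These L levels of Cldn3, Cldn4 and Cldn7 lay at or near those of C18 in L mice (4.34 to 6.31 CPM for Cldn3, 0 to 2.37 CPM for Cldn4 and 4.34 to 6.31 CPM for Cldn7). In G the basal level of Cldn3 was already read as background. That of Cldn7 lay within the 0 to 34.4 CPM of C18 over all libraries, and that of Cldn1 within 0 to 26.01 CPM. The changes of Cldn3 and Cldn7 from G to L are thus between levels near background. That of Cldn1 is between low levels that C18 does not set apart from background. Tjp1 fell by 0.43 ± 0.15 (adjusted p = 0.0241), to 54.97 and 63.05 CPM, and lost the call without the second G mouse (−0.34, adjusted p = 0.184) or the first L mouse (−0.30, adjusted p = 0.191). Cldn7 lost its call without the second G mouse (−1.41, adjusted p = 0.079). Of the luminal keratins Krt8, Krt18 and Krt19, Krt19 rose by 3.58 and Krt8 by 0.90 in the same basal sums. The part of these genes in the result was not tested. Without the first L mouse Ocln passed too (−2.57, adjusted p = 0.00648), and without the second one Cldn5 did (1.27, adjusted p = 0.00602).

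PI basal cells, 28 and 59 in number, had Cldn4 at 559.5 and 323.1 CPM, Cldn3 at 61.2 and 131.1 CPM and Cldn7 at 61.2 and 86.36 CPM, ranges that overlapped with those of NP. No gene of 8 tested passed against NP by edgeR's quasi-likelihood test, where 4.47% of all tested genes did (1.92% rose and 2.54% fell). At an unadjusted p under 0.05 there were 2, F11r and Cldn1, and DESeq2 called F11r alone (0.70, adjusted p = 0.02). F11r was 140.7 and 153.0 CPM in NP and 198.3 and 332.2 CPM in PI (0.58 ± 0.20, adjusted p = 0.121 by edgeR). In C12 of the first PI mouse the 64 Cldn4 UMIs came from 4 of 27 cells, so that the level is not that of most cells there.

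The change from G to L was compared between differentiated alveolar and basal cells with the mouse as a block. With 2 mice in each stage the p-values rest on the spread estimated across all genes. A very small one does not measure the spread between mice, and Cldn4 in the alveolar cells differed widely between the 2 L mice. Of 9 tested genes 5 had a higher change in alveolar cells and none a lower one, where 18.5% of all tested genes differed (8.29% higher and 10.2% lower). The difference was 3.74 ± 0.24 for Cldn4 (adjusted p = 7.38e-48), 2.63 ± 0.75 for Cldn8 (adjusted p = 0.00489), 2.42 ± 0.76 for Cldn5 (adjusted p = 0.0124), 1.89 ± 0.32 for Cldn7 (adjusted p = 1.24e-07) and 1.03 ± 0.24 for Cldn3 (adjusted p = 0.000286), against a median over all tested genes of −0.27. The basal levels of Cldn3 and Cldn7 were near background in both stages, so their differences do not compare the lineages. The basal level of Cldn4 in L was at or near that of C18. In G it was above C18 of the same mice but within the C18 range over all libraries. The alveolar change of Cldn4 had no stable direction, so its difference is not read as a rise in alveolar cells. The count of 5 is therefore not read against the share of all genes. The calls of Cldn4 and Cldn7 held without any 1 of the mice. Cldn8 was under the filter in basal cells, with 1 and 7 UMIs in G and 13 and 11 in L, and entered the test through the alveolar cells, and Cldn5 had 7 and 2 UMIs in the alveolar cells of the L mice; nothing is read from either value. Cldn8 lost its call without the second G mouse (0.50, adjusted p = 0.957), Cldn3 without either G mouse (0.92 and 1.06, adjusted p = 0.105 and 0.0657), and Cldn5 without the first G mouse (1.93, adjusted p = 0.171) or the first L mouse (1.94, adjusted p = 0.423). Without the first L mouse Ocln (2.78, adjusted p = 0.00762) and F11r (0.73, adjusted p = 0.0387) passed. With no block for the mouse 3 genes passed. Basal markers differed in the same direction, 4 of 4, and luminal keratins in the other, 3 of 3; their part in the result was not tested.

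Across the 35 sums Cldn3, Cldn7 and Ocln had nearly the same pattern, with Pearson correlations of log2(CPM + 1) of 0.976 between Cldn3 and Cldn7, 0.976 between Cldn7 and Ocln and 0.953 between Cldn3 and Ocln. Within the 25 luminal sums the same values were 0.267, 0.747 and 0.240, and Cldn8 was at −0.805 with Cldn7. The sums share libraries and mice, so these are descriptions. Among 5703 genes with a mean of at least 20 CPM, those most like Cldn3 were Cldn7, Cgn (cingulin, 0.959) and Ocln. Those most like Cldn4 were Marveld2 (tricellulin, 0.964), Spint1 (0.961) and Cldn7 (0.953), and those most like Ocln were Cldn7, Crb3 (0.966) and Krt18 (0.966). Cldn7 came closest to Ocln, Cldn3 and Marveld2 (0.972). Cldn1 was most like Aldh1a3 (0.913), Muc4 (0.905) and Kcnn4 (0.901), and Cldn8 like Smim22 (0.859), Folr1 (0.853) and Cd320 (0.846). Tjp1 was nearest to Pwwp2a (0.880), Wdr45b (0.874) and Pkn2 (0.874), F11r to Mdfi (0.886), Fam102a (0.872) and Rab15 (0.867), and Cldn5 to Fabp4 (0.798), Fbxl22 (0.733) and Col1a2 (0.731).

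Other genes of the junction complex divided between the lineages, where 24.6% of all tested genes were higher in luminal cells and 22.5% lower. Of 27 tested further tight junction components, 11 were higher in luminal cells and 7 lower (median 0.41), led by Tjp3 (ZO-3, 5.0), Cgn (4.59) and Marveld3 (4.39) and, on the basal side, Bves (−4.12). Of 8 tested further claudins, 3 were higher and 3 lower. Among 16 polarity genes 7 were higher, led by Crb3 (3.40) and Pard6b (2.77), and 4 lower, led by Pard6g (−2.93) and Lin7b (−2.79). Adherens junction genes counted 3 higher and 5 lower of 10, with Cdh3 (P-cadherin) at −5.23 and Pvrl4 at 4.24, and desmosome genes 4 higher and 7 lower of 13, with Dsc3 at −5.08 and Pkp2 at 4.42. Of 16 transcription factors known to act on junction genes, 6 were higher, among them Elf5 (5.49), Ehf (4.97) and Grhl1 (3.56), and 5 lower, with Snai2 (Slug), a repressor that binds the E-box, at −6.32. From NP to G in basal cells 10 of 27 other tight junction components rose and 9 fell, where 21% of all tested genes rose and 18.9% fell, with Jam3 at 3.10 and Bves at 2.37 and, among those that fell, Marveld3 at −1.77; Crb3 fell (−2.76) and Snai2 rose (0.97).

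**Figure D5:**
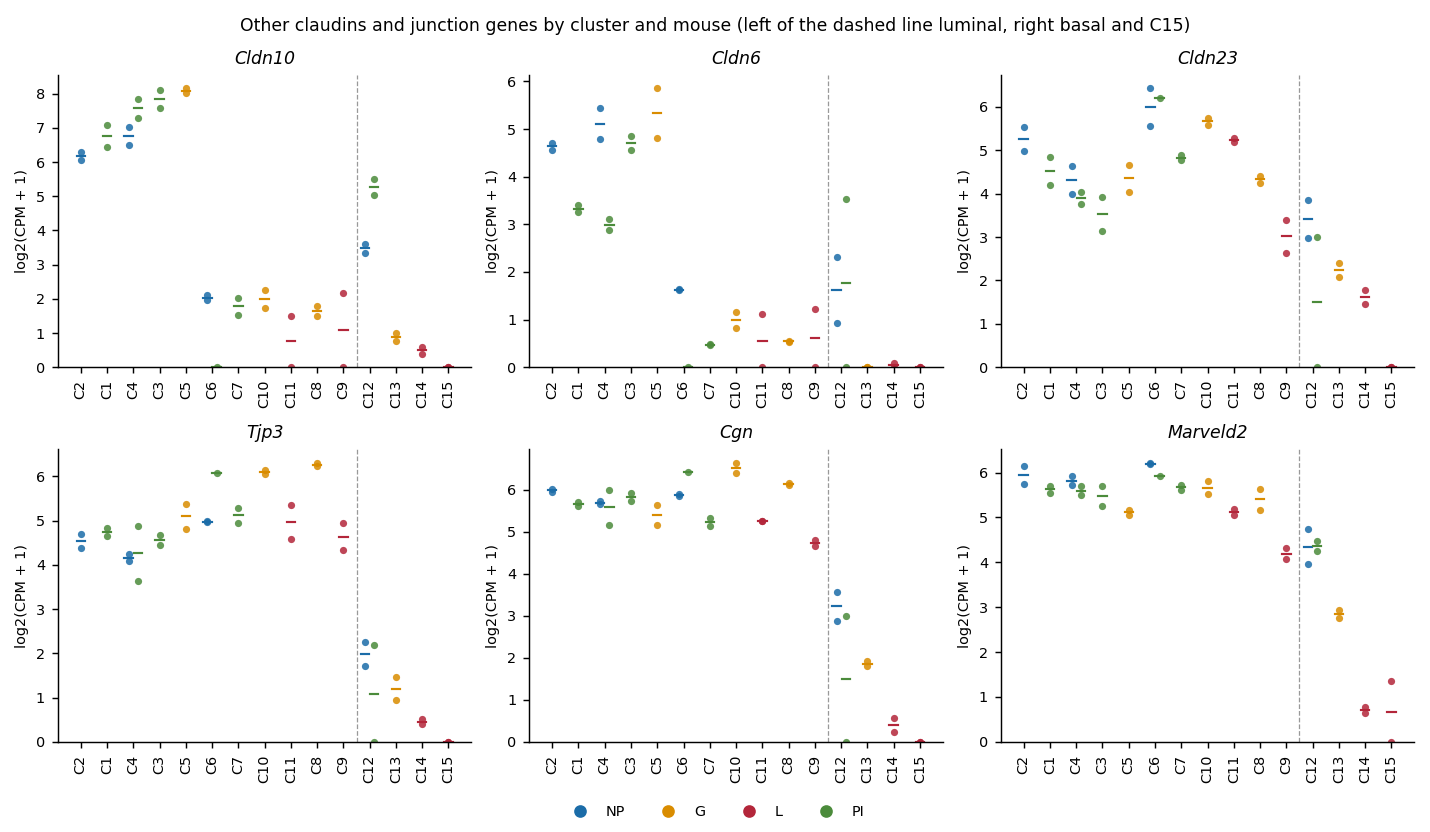
Level of further claudins and junction genes as log2(CPM + 1) by cluster; each point is 1 mouse, coloured by stage, with luminal clusters to the left of the dashed line. Among luminal clusters Cldn10 has its high values, 66.2 to 284 CPM, in the hormone-sensing ones.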

How the data were processed

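Mammary cells of 8 mice were profiled with 10x Chromium v2 3′ chemistry. The authors aligned reads to mm10 with STAR, took UMIs and barcodes with Cell Ranger and the supplier's annotation (versions not given in the sources used here), and deposited raw counts for each library, with no normalisation between libraries. The authors flagged cells of low quality, left out clusters taken for doublets and deposited a cluster for each cell; no doublet caller was run here. The combined table of all libraries was not used. Cells with a barcode sequence in more than 1 library were removed by the authors, and 1 annotated cell had no barcode in the count tables. Symbols of 56 genes were shared by several identifiers and were kept apart by identifier.

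Counts were summed per library and cluster or cell type, with sums of at least 20 cells kept, and given as CPM of all UMIs of a sum. Sums were compared with edgeR 4.0.16 (R 4.3.3; TMM normalisation, quasi-likelihood test, filterByExpr with a minimum count of 10 and a minimum total of 15), with Benjamini-Hochberg adjustment over all genes tested and a threshold of 0.05, two-sided. Luminal and basal sums were compared with the mouse as a block, cell types between stages without one, and differences between 2 cell types as an interaction with the mouse as a block. Replicates are separate mice, 1 library each. The scripts were tested on simulated counts. The members and gene lists were chosen with earlier results of these data known. The text names the 9 genes in every comparison, for other lists at most 4 of those that passed per comparison with the largest changes first, and for each of the 9 genes the 3 with the highest correlation over sums. A result that falls under this rule is not reported here. Alternatives were DESeq2 1.42.0, no filter, glmTreat with a log2 fold change of 1 at an FDR of 0.01, milk protein genes left out, sums thinned to the lowest total, 1 fit over every sum, the main cluster of each stage only, C15 counted as basal, the replicate number as a block, and each mouse left out. Other software was Python 3.11.15, numpy 2.4.6, pandas 2.3.3, scipy 1.17.1 and matplotlib 3.10.9.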

Additional observations from a re-analysis of the deposited data

Results flagged for a closer look

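In the interaction test 2 genes changed unequally from NP to PI in luminal progenitors and in differentiated hormone-sensing cells: Cldn1 (1.79, higher in luminal progenitors) and Cldn4 (−0.60, lower there). Neither passed without the mouse as a block. The Cldn1 levels of the hormone-sensing cells lay within those of the fibroblast cluster C18. Cldn4 did not pass without any 1 of the 4 mice, and Cldn1 did not pass without the first NP or the second PI mouse.

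From G to L, the change differed between differentiated alveolar and basal cells for 5 genes, each higher in alveolar cells: Cldn4 (3.74), Cldn8 (2.63), Cldn5 (2.42), Cldn7 (1.89) and Cldn3 (1.03). Cldn8 had 1 and 7 UMIs in the basal sums of the G mice and 13 and 11 in those of the L mice, and passed the filter through the alveolar sums. Cldn5 had 7 and 2 UMIs in the alveolar sums of the L mice. Cldn3 and Cldn7 were near background in the basal sums of both stages. Cldn4 was at or near the level of C18 in the basal sums of the L mice. Its alveolar change turned direction with the L mouse that was left out. Of the 5 genes, the values of Cldn8, Cldn3 and Cldn5 did not pass when certain single mice were left out.

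C19, a cluster outside the 15 compared that carried the endothelial markers although CD31-positive cells had been sorted out, held signal of 3 of the genes above every sum of C1 to C15 from the same mice: Cldn5 with a mean of 1322 CPM, Tjp1 with 189.4 CPM and F11r with 244.6 CPM, each over 4 mice. Cldn3 in C19 had a mean of 23.1 CPM and Cldn4 of 12 CPM, so that C19 held Tjp1 and F11r with little of the epithelial claudins.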

How the results depend on the processing

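Of the single-gene results under settings other than leaving out a mouse, 689 kept direction and side of the threshold, 45 lost a call, 13 gained one and 1 turned: F11r in basal cells from NP to G, at 0.53 with sums thinned to equal depth. With mice left out the numbers were 375, 38, 17 and 1, the last being Cldn4 in differentiated alveolar cells from G to L (−0.61 without the second L mouse, 1.48 without the first). A lone remaining mouse is assumed to vary like the others. Leaving out milk protein genes, summing the main clusters only and counting C15 as basal changed no call.

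Counts of the 9 genes called moved as follows. Thinning gave 3 of 7 for luminal against basal cells, 0 of 2 for Hsd from NP to PI, 1 of 5 for basal cells from NP to G and from G to L, 1 against 0 for basal cells from NP to PI, and 1 for either interaction (2 and 5). The glmTreat test gave 1 for Lp (3), 0 for Hsp (1), 1 for Hsd from NP to PI (2), 2 for Hsd from NP to G (4), 0 for Avp (5), 1 for Avd (3), 3 and 1 for basal cells (5 and 5), and 0 and 1 for the interactions (2 and 5). DESeq2 gave 3 for Avp (5), 5 for Avd (3), 1 for basal cells from NP to PI (0) and 1 for the first interaction (2). Without a filter there were 2 for Hsp (1) and 5 for Avd (3), and 1 fit over every sum gave 3 for Avp (5). The cause was not tested.

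Leaving out 1 mouse gave 6 to 7 genes for luminal against basal cells, 2 to 4 for Lp, 1 to 4 for Hsp, 1 to 3 for Hsd from NP to PI, 2 to 4 for Hsd from NP to G, 3 to 6 for Avp, 1 to 5 for Avd, 3 to 5 for basal cells from NP to G, 3 to 6 from G to L, 0 to 0 from NP to PI, 0 to 2 for the first interaction and 3 to 6 for the second.

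Same-numbered mice deviated together with correlations of −0.116 to 0.183 over 19 pairs, so the numbers do not pair them. With the replicate block Cldn5 in Avd passed (3.36, adjusted p = 0.00627), as did Ocln in basal cells from G to L (−1.52, adjusted p = 0.0372), and no other call of a gene changed. With no replicate block, which drops the mouse from the interactions, 0 of 2 and 3 of 5 passed.

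Depth limits the sums of few cells: Hsd in G, basal cells in PI and Avd in L.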

Other observations

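Among the claudins outside the 9, Cldn10 was at 66.2 to 284 CPM in the hormone-sensing clusters and at most 3.7 CPM in other luminal clusters. Cldn6 ran in parallel at 6.3 to 56.8 CPM against at most 2.1 CPM. Basal C12 also held Cldn10, at 44.81 and 31.71 CPM in the PI mice (5 and 9 UMIs) and 11.28 and 9.15 CPM in the NP mice. Cldn6 reached 10.57 CPM in C12 of the second PI mouse, from 3 UMIs. In differentiated hormone-sensing cells Cldn10 rose from NP to PI (0.95 ± 0.18, adjusted p = 0.000294) and from NP to G (adjusted p = 0.00202), both by edgeR. Cldn23 had its highest level in C6 of the first NP mouse, at 84.8 CPM, and was 46.0 CPM in C6 of the second. C6 of the first PI mouse had 72.5 CPM from 11 UMIs, and C10 of the G mice had 52.8 and 46.8 CPM. Over C6 and C7 together, Cldn23 was lower in PI than in NP mice (−1.16, adjusted p = 0.00323 by edgeR).

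Several desmosome genes were lower after involution in luminal progenitors: 6 of 11 tested were lower in PI than in NP and none higher, with a median over the list of −0.46 and over all tested genes of −0.02; of all tested genes 13% fell there. They included Dsc2 (−1.82), Dsp (desmoplakin, −1.81), Pkp1 (−1.41) and Pkp3 (−1.11). In hormone-sensing progenitors 4 of 11 were lower and none higher, and in differentiated hormone-sensing cells 2 of 11, Pkp1 (−2.84) and Dsc2 (−1.02), where 7.05% and 9.18% of all tested genes fell.

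In basal cells from G to L, Marveld2 (−3.24), Cgn (−2.87) and Cxadr (−1.86) fell, while Arhgef2 (1.61) and Arhgef18 (1.58) rose. Snai2 fell (−1.68) in the same sums.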
